A study of Homo sapiens with 6 samples.

Results

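The DNA replication and S phase genes are 46 human genes whose products copy the genome and start its copying. The choice was by gene symbol, with earlier results of these data known. All 46 symbols matched 1 Ensembl gene each among the 61498 genes listed, and all 46 passed the filter on low counts. They were sorted by role into 7 groups. These were 12 genes of the MCM helicase and its partners, 4 of origin recognition and licensing, 6 of the sliding clamp and its loader, and 9 of the polymerases and primase. The other groups were 7 genes of single-strand binding, flap removal, ligation and chromatin assembly, 3 of S phase entry, and 5 of nucleotide supply and histone mRNA. Their RNA was measured by total RNA sequencing after removal of ribosomal RNA in 3 untreated human cell lines, with 2 libraries each. RPMI-8226-R is 1 derivative of the multiple myeloma line RPMI-8226 and is resistant to the proteasome inhibitor bortezomib, RPMI-8226 is its parent, and NCI-BL2171 is the third line. The labels call all 3 lines B lymphocytes and give no drug in culture, passage or growth phase. The series' title and design text set bortezomib resistance as its question, which RPMI-8226-R against RPMI-8226 addresses.

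A replication origin is licensed in G1, when the origin recognition complex with CDC6 and CDT1 loads the ring-shaped MCM helicase onto DNA, and it fires in S phase, when CDC45 and the GINS complex turn that ring into the active helicase. Polymerase alpha with primase then lays primers, polymerases epsilon and delta extend them on the PCNA clamp, and chromatin assembly factor wraps the new DNA in nucleosomes. E2F1 and cyclin E drive entry into S phase and the transcription of many of these genes, which proliferating cell lines of blood origin express in bulk culture.

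The authors' estimated counts summed to 25695927 and 26860081 reads in the RPMI-8226-R libraries, 29052199 and 27947579 in the RPMI-8226 libraries, and 26790603 and 23952370 in those labelled NCI-BL2171. Levels below are CPM, read counts scaled to library size by the TMM method, except where the deposited, length-corrected TPM is named. Of 8 plasma cell markers, 8 were at 1 TPM or more in each RPMI-8226-R and RPMI-8226 library, against 2 in each library labelled NCI-BL2171, where JCHAIN, MZB1, TNFRSF17 and IRF4 were at 0. Their summed level was 33540 to 34604 TPM in RPMI-8226-R, 55202 to 57819 TPM in RPMI-8226 and 47.9 to 50.7 TPM in the libraries labelled NCI-BL2171. The immunoglobulin gene IGLC2 made up most of the sum in both myeloma lines, at a mean of 29566 TPM in RPMI-8226-R and 53349 TPM in RPMI-8226. In RPMI-8226-R over RPMI-8226, IGLC2, MZB1 and PRDM1 fell, while JCHAIN, TNFRSF17, IRF4, SDC1 and XBP1 rose by 0.29 to 0.74 on the log2 scale of counts. Summed levels of 8 B cell markers were 148 to 154 TPM in RPMI-8226-R, 6697 to 6793 TPM in RPMI-8226 and 5.07 to 5.11 TPM in the libraries labelled NCI-BL2171. Summed levels of 7 red cell lineage markers were 159 to 175 TPM in RPMI-8226-R, 52.8 to 54.1 TPM in RPMI-8226 and 47886 to 49889 TPM in the libraries labelled NCI-BL2171. GATA1 and ALAS2 of that list were at 0 in RPMI-8226-R and RPMI-8226. The libraries labelled NCI-BL2171 thus go against their labelled cell type and are named by their label. The part of these markers in the results was not tested. Nothing in the labels says that a line's libraries are from separate cultures, and p-values then reflect only the spread between libraries, which may be technical. In bulk RNA, fewer cells in S phase and less of a transcript per cell cannot be told apart, and neither can growth state and line.

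In RPMI-8226-R against RPMI-8226, 23 of the 46 replication genes rose and 13, or 28.3%, fell, while 10 stayed short of the threshold, an adjusted p below 0.05 in edgeR's quasi-likelihood test. Of all 20081 genes tested, 28.5% rose, 37.2% fell and 65.6% were called, so that the share called higher was larger, and the share called lower smaller, among the replication genes. The median log2 fold change was 0.17 over the replication genes and -0.12 over all tested genes. The split depended on scaling, with 17 higher and 17 lower under upper-quartile factors (26.3% and 39.5% of all genes), and 29 higher and 7 lower on the log2(TPM + 1) scale with limma-trend, where 35% of all genes were called higher and 22.7% lower. Most changes were small. A change of at least 1.5-fold was seen in 9 of the 46 members on the higher side, about the 19.7% share of all genes. On the lower side it was seen in 6, a smaller share than the 29.3% of all genes. The larger share of rises was thus seen only without a minimum fold change. Past a 2-fold change stood 4 members on the higher side, RFC3, CHAF1B, CHAF1A and POLA1, and 2 on the lower, CCNE2 and CCNE1, that is 6 of 46 members against 33.3% of all genes. Counts differed between the role groups. The helicase, polymerase and chromatin assembly groups, with 12, 9 and 7 members, held 20 of the 23 rises, and also the falls of MCM2, PRIM1, RPA2 and RPA3. The 3 S phase entry genes and 3 of the 4 licensing genes fell, ORC1 and CDC6 among them with the opposite sign on the log2(TPM + 1) scale. Genes of related role outside the 46 did not always move alike. Of 16 other licensing and firing genes 12 rose and none fell. That list is drawn wider than the 4 licensing members, since CDC45 and the GINS genes, which act at firing, were counted in the helicase group. Among nucleotide supply genes and SLBP 1 member rose and 2 fell, against 14 and 3 of 20 other nucleotide supply genes.

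**Figure D1:**
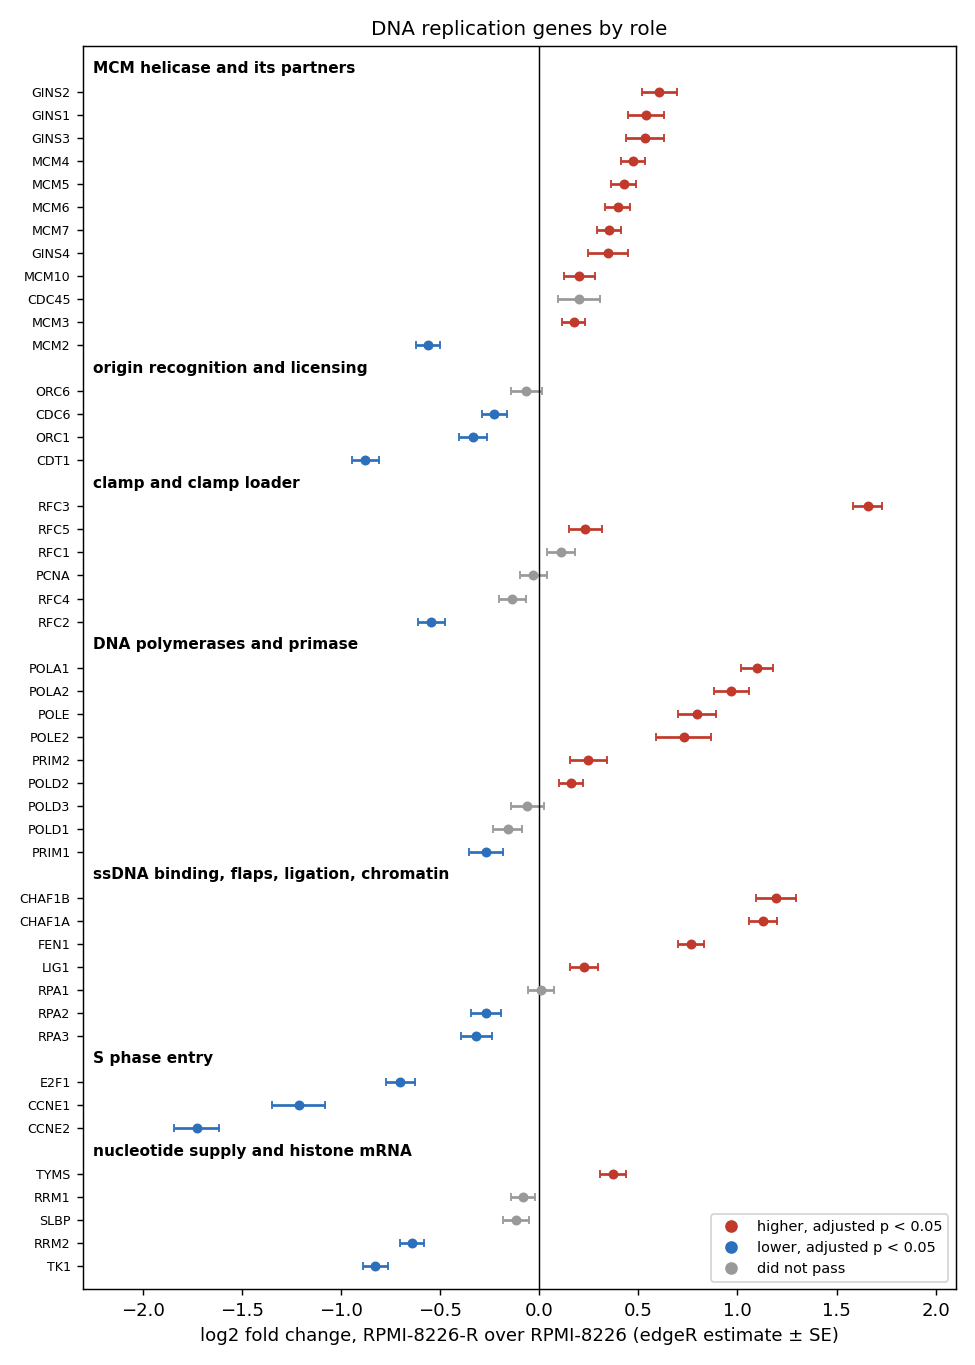
Log2 fold change of each replication gene in RPMI-8226-R over RPMI-8226, from edgeR on TMM-scaled counts, grouped by role, with bars of 1 standard error from the fit (2 libraries a line). RFC3 lies farthest to the higher side at 1.66 and CCNE2 farthest to the lower side at -1.73.

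The DNA just before the transcription start was read for 39 of the 46 genes, since E2F factors bind 8-letter sites there in many replication genes. Windows ran from 250 bases before to 50 bases after the start in RefSeq's GRCh38.p14 annotation; MCM4, MCM5, GINS4, POLD3, RPA2, RPA3 and CCNE2 were not read. The letters TTTCCCGC, TTTGGCGC, TTTCGCGC or TTTGCCGC, on either strand, stood in 18 of 39 members, 46.2%, against 3.99% of 27305 genes with windows of the same length. Of members with a window, 13 of 20 that rose in RPMI-8226-R over RPMI-8226, 4 of 10 that fell and 1 of 9 that did not pass held such a match. The 7 stretches below end at the base before the start, run 5′ to 3′ on the gene's strand and carry the match in capitals. They are shown because genes with like letters moved in both directions. RFC3, POLA2, GINS2 and TYMS rose, E2F1 and CDT1 fell, and PCNA did not pass.
RFC3, chr13:33818049-33818148, plus strand: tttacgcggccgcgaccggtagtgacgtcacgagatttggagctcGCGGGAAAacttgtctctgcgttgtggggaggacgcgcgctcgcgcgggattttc
POLA2, chr11:65261862-65261961, plus strand: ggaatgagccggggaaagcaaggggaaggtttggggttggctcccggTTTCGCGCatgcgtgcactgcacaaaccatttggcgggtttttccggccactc
GINS2, chr16:85688955-85689054, minus strand: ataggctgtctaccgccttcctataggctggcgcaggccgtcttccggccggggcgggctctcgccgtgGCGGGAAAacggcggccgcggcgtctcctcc
TYMS, chr18:657553-657652, plus strand: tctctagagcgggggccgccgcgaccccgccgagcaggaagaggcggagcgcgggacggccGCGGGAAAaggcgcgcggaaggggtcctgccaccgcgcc
E2F1, chr20:33686386-33686485, minus strand: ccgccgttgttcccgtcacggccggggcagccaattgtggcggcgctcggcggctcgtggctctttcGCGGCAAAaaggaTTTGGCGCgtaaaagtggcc
CDT1, chr16:88803689-88803788, plus strand: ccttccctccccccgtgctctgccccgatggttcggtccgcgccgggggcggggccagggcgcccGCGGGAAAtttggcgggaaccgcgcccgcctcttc
PCNA, chr20:5126623-5126722, minus strand: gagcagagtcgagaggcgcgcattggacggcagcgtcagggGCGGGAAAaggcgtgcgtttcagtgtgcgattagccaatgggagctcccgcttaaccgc
E2F1, itself the gene of an E2F factor, carried 2 matches in this stretch, which began 33 and 20 bases before its start. The matches began 55 bases before the start in RFC3, 53 in POLA2, 39 in TYMS, 35 in CDT1, 31 in GINS2 and 59 in PCNA. CCAAT, on either strand, stood in 59% of the members against 39.7% of genes. TTTGAA or TTCGAA, letters of the CHR type found before many G2 and mitosis genes, stood in 5.13% of the members against 19.5% of genes, and the E-box CACGTG in 12.8% against 8.77%. All starts here are RefSeq's. By the gene coordinates used outside this promoter reading, the stretches of RFC3, GINS2 and CDT1 lie inside the gene. A match describes letters and does not show binding.

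Of the 12 genes of the MCM helicase and its partners, 10 rose, 1 fell and 1 did not pass, with a median log2 fold change of 0.37; on the log2(TPM + 1) scale, by limma-trend, 8 rose and none fell. GINS2, a subunit of the GINS complex that activates the helicase, had 47.2 and 42.5 CPM in RPMI-8226-R, against 27.6 and 31.3 CPM in RPMI-8226. Both RPMI-8226-R values lay above both parental ones, a log2 fold change of 0.61 ± 0.09 (SE, adjusted p = 3.4e-06, edgeR). GINS2 overlaps GSE1 on the other strand, which did not pass the test (log2 fold change -0.07), and the use of strand in counting is not given, so its count is uncertain. GINS1, another GINS subunit, had 48.0 and 48.9 CPM in RPMI-8226-R, against 32.9 and 33.7 CPM in RPMI-8226. It rose by 0.54 ± 0.09 on the log2 scale (adjusted p = 2.2e-05, edgeR) with groups apart, but did not pass on the TPM scale (limma adjusted p = 0.07) or with the effective-length offset (adjusted p = 0.21, edgeR). GINS3 rose by 0.53 and GINS4 by 0.35.

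MCM2, a subunit of the 6-member ring, was the exception in the group. It had 238 and 233 CPM in RPMI-8226-R, against 348 and 347 CPM in RPMI-8226, with groups far apart and a log2 fold change of -0.56 ± 0.06 (adjusted p = 4e-08, edgeR). On the log2(TPM + 1) scale its difference was -0.04 and did not pass (limma adjusted p = 0.55). MCM2 overlaps TPRA1 on the other strand, which was less abundant and had a log2 fold change of -0.73. The other ring subunits MCM3, MCM4, MCM5, MCM6 and MCM7 rose by 0.17 to 0.47 on the log2 scale of counts, the smallest being MCM3 and the largest MCM4. MCM10, which binds the helicase as it becomes active, had 49.6 and 51.1 CPM in RPMI-8226-R, against 42.8 and 44.7 CPM in RPMI-8226. Its groups did not overlap, but its rise of 0.20 ± 0.08 (adjusted p = 0.028, edgeR) had the opposite sign, -0.15, with an effective-length offset. CDC45, the helicase cofactor, had 15.9 and 13.4 CPM in RPMI-8226-R, against 11.9 and 13.7 CPM in RPMI-8226, with overlapping groups, and did not pass (adjusted p = 0.11, edgeR).

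The ring holds 1 copy of each subunit as protein. Their RNA levels can be compared between genes only per unit of length, in TPM. In RPMI-8226-R, MCM4 had 307 and 345 TPM and MCM7 311 and 329 TPM, while MCM6 was lowest with 86.8 and 89.5 TPM. In RPMI-8226, MCM7 was highest with 189.6 and 189.1 TPM and MCM6 lowest with 53.5 and 47.4 TPM. In the libraries labelled NCI-BL2171, MCM4 was highest with 368 and 417 TPM. The highest subunit thus exceeded the lowest 3.58-fold and 3.86-fold in RPMI-8226-R, 3.55-fold and 3.99-fold in RPMI-8226, and 7.59-fold and 8.13-fold in the libraries labelled NCI-BL2171. The length that divides each count differed, at 1117 to 1231 bases for MCM4 and 2444 to 2809 bases for MCM3 over the libraries, so an order between subunits rests on these length estimates too. Summed over all 46 genes, TPM was 4166 and 4341 in RPMI-8226-R, 3307 and 3291 in RPMI-8226, and 3681 and 3811 in the libraries labelled NCI-BL2171. In RPMI-8226-R over RPMI-8226, log2(TPM + 1) differences lay 0.36 above the log2 fold changes of counts at the median of all tested genes. The sums carry this shift of scale, so their gap between these 2 lines does not by itself show a rise of the members.

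**Figure D2:**
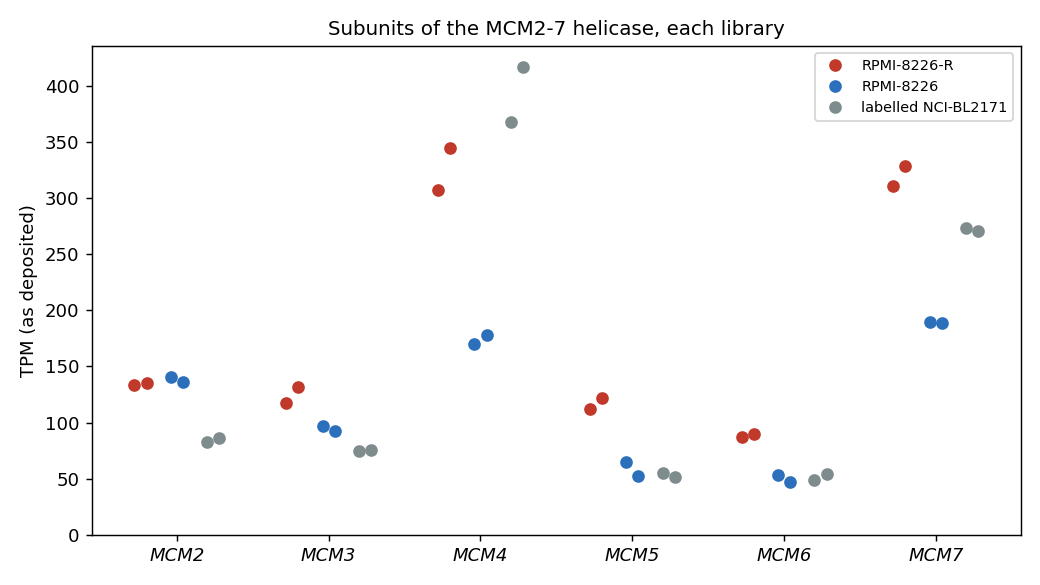
TPM of the subunits MCM2 to MCM7 in each library, with RPMI-8226-R, RPMI-8226 and the libraries labelled NCI-BL2171 from left to right in each gene. MCM4 and MCM7 lie above the other subunits in all 6 libraries, and MCM2 has about the same TPM in RPMI-8226-R and RPMI-8226 although its CPM differed.

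Of the 4 licensing genes, none rose, 3 fell and ORC6 did not pass in RPMI-8226-R over RPMI-8226, with a median log2 fold change of -0.28; on the log2(TPM + 1) scale ORC1, ORC6 and CDC6 took the opposite sign and the median was 0.074. CDT1, which brings the MCM ring to origins and is destroyed once S phase begins, had 95.3 and 93.3 CPM in RPMI-8226-R, against 177 and 169 CPM in RPMI-8226. The groups lay far apart, 1.84-fold lower in RPMI-8226-R, with a log2 fold change of -0.88 ± 0.07 (adjusted p = 2.5e-10, edgeR) and -0.51 on the log2(TPM + 1) scale. ORC1, the origin recognition subunit that cycles in human cells, had 76.3 and 73.3 CPM in RPMI-8226-R, against 97.9 and 90.7 CPM in RPMI-8226. Its groups did not overlap and its log2 fold change was -0.33 ± 0.07 (adjusted p = 0.00021, edgeR), against 0.052 on the log2(TPM + 1) scale, which did not pass. CDC6, the loader that works with CDT1, had 119.7 and 122 CPM in RPMI-8226-R, against 143 and 139.98 CPM in RPMI-8226. Its fall of 0.23 on the log2 scale passed (adjusted p = 0.0035, edgeR), but not on the TPM scale, where the sign was the opposite at 0.10, or without RPMI-8226 replicate 1 (adjusted p = 0.053).

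Of the clamp and its loader, 2 genes rose, 1 fell and 3 did not pass in RPMI-8226-R over RPMI-8226. RFC3, a small subunit of the loader that opens PCNA, had 147 and 145 CPM in RPMI-8226-R, against 44.1 and 48.4 CPM in RPMI-8226. This was the widest gap among the 46 genes on the higher side, 3.15-fold, with a log2 fold change of 1.66 ± 0.07 (adjusted p = 3.6e-14, edgeR). RFC3 (ENSG00000133119, GRCh38 chr13:33818049-33966558, plus strand) passed under every alternative tried. These gene coordinates begin at the same base as the RFC3 promoter stretch printed above, which was placed by RefSeq's start. By them that stretch and its match lie inside the gene, so the start of RFC3 differs between the annotations. The subunits of the 5-member loader did not move together. RFC2 had 67.3 and 62.8 CPM in RPMI-8226-R, against 94.4 and 95.2 CPM in RPMI-8226, a log2 fold change of -0.54 ± 0.07 (adjusted p = 4.8e-07, edgeR). RFC5 had 60.9 and 51.9 CPM in RPMI-8226-R, against 46.6 and 49.4 CPM in RPMI-8226, a rise of 0.23 ± 0.08 (adjusted p = 0.019, edgeR) with groups apart. RFC5 overlaps WSB2 on the other strand, which was less abundant and had a log2 fold change of -1.14. RFC1 and RFC4 did not pass, at 0.11 and -0.13; RFC4 overlaps the more abundant EIF4A2 on the other strand. PCNA, the clamp itself and a common marker of proliferation, had 267 and 231 CPM in RPMI-8226-R, against 254 and 255 CPM in RPMI-8226. The RPMI-8226-R libraries lay on both sides of the parental ones, and the log2 fold change was -0.03 ± 0.07 (adjusted p = 0.73, edgeR), against 0.34 on the log2(TPM + 1) scale.

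Of the 9 polymerase and primase genes, 6 rose, 1 fell and 2 did not pass, with a median of 0.25; PRIM1 and POLD3 took the opposite sign on the log2(TPM + 1) scale. POLA1, the catalytic subunit of polymerase alpha, had 60.4 and 59.8 CPM in RPMI-8226-R, against 27.6 and 28.5 CPM in RPMI-8226. POLA2, its regulatory subunit, had 60.7 and 61.0 CPM in RPMI-8226-R, against 30.2 and 32.0 CPM in RPMI-8226. Per unit of length, POLA1 had 20.65 and 21.9 TPM in RPMI-8226-R, against 8.635 and 9.21 TPM in RPMI-8226, and POLA2 had 54.7 and 55.0 TPM, against 23.6 and 22.8 TPM. The subunits thus differed in level and both rose, with log2 fold changes of 1.10 ± 0.08 for POLA1 and 0.97 ± 0.09 for POLA2 (adjusted p = 1.7e-10 and 3.5e-09, edgeR). POLA1 overlaps the pseudogene EEF1B2P3 on the other strand, which had a higher TPM and did not pass (log2 fold change -0.04). The primase subunits that work in the same complex moved apart. PRIM1 had 46.9 and 39.1 CPM in RPMI-8226-R, against 49.97 and 53.4 CPM in RPMI-8226, a log2 fold change of -0.27 ± 0.09 (adjusted p = 0.01, edgeR) that did not pass in DESeq2. PRIM1 overlaps on its own strand NACA, which was more abundant and fell by 0.23 (adjusted p = 0.0032, edgeR), and the less abundant ENSG00000285625, which had -9.24, so its count is uncertain. PRIM2 rose by 0.25 ± 0.09 (adjusted p = 0.024, edgeR), and partial copies of it exist in the genome that could share its reads. POLE, the catalytic subunit of the leading-strand polymerase, had 38.3 and 47.4 CPM in RPMI-8226-R, against 25.2 and 24.1 CPM in RPMI-8226, and rose by 0.80 ± 0.10 (adjusted p = 2.8e-07, edgeR). Its partner POLE2 rose by 0.73, but did not pass with the effective-length offset (adjusted p = 0.12, edgeR). Of polymerase delta, POLD2 rose by 0.16, and the catalytic subunit POLD1 and the accessory subunit POLD3 did not pass at -0.16 and -0.06.

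Of the genes of single-strand binding, flap removal, ligation and chromatin assembly, 4 rose, 2 fell and 1 did not pass. The rises were CHAF1A and CHAF1B of chromatin assembly factor, the flap nuclease FEN1 and the ligase LIG1. CHAF1A had 111 and 114 CPM in RPMI-8226-R, against 52.7 and 50.3 CPM in RPMI-8226. CHAF1B had 31.1 and 29.8 CPM in RPMI-8226-R, against 13.5 and 13.05 CPM in RPMI-8226. Both subunits were more than doubled, by 1.13 ± 0.07 for CHAF1A and 1.20 ± 0.10 for CHAF1B on the log2 scale (adjusted p = 1.1e-11 and 1.2e-09, edgeR). CHAF1A overlaps UBXN6 on the other strand, which was more abundant and moved the other way, with a log2 fold change of -0.90. CHAF1B overlaps MORC3 on the same strand, which had a higher TPM and fell by 0.45. FEN1 had 334 and 300.2 CPM in RPMI-8226-R, against 184 and 189 CPM in RPMI-8226, and rose by 0.77 ± 0.07 (adjusted p = 1.4e-09, edgeR). FEN1 overlaps FADS2 on the same strand, which was more abundant and rose by 2.16 (adjusted p = 1.2e-16, edgeR), and TMEM258 on the other strand, which was more abundant and fell by 0.37. Reads shared with either could not be told apart here, so its count is uncertain. LIG1 rose by 0.23. None of the subunits of RPA, the single-strand binding complex, was called higher on counts, whereas RPA1 rose on the log2(TPM + 1) scale. RPA3 had 58.6 and 51.9 CPM in RPMI-8226-R, against 66.4 and 71.3 CPM in RPMI-8226, a log2 fold change of -0.32 ± 0.08 (adjusted p = 0.0012, edgeR). RPA3 overlaps UMAD1 on the other strand, which was less abundant and had a log2 fold change of -0.85. RPA2 had 33.7 and 31.0 CPM in RPMI-8226-R, against 39.0 and 38.9 CPM in RPMI-8226, a log2 fold change of -0.27 ± 0.08 (adjusted p = 0.0046, edgeR). Both had the opposite sign on the log2(TPM + 1) scale, at 0.10 for RPA3 and 0.063 for RPA2, where neither passed. RPA1 did not pass in edgeR at 0.01, and rose by 0.50 on the log2(TPM + 1) scale (limma adjusted p = 0.0097).

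All 3 genes of S phase entry fell, with a median log2 fold change of -1.21, and they fell on the TPM scale too. CCNE2, one of the cyclin E genes that activate CDK2, had 13.8 and 11.6 CPM in RPMI-8226-R, against 39.9 and 44.1 CPM in RPMI-8226. It was 3.31-fold lower in RPMI-8226-R, the widest gap on the lower side, with a log2 fold change of -1.73 ± 0.11 (adjusted p = 2.2e-11, edgeR). CCNE2 overlaps INTS8 on the other strand, which was more abundant and rose by 0.64. CCNE1, the other cyclin E gene, had 6.05 and 6.31 CPM in RPMI-8226-R, against 14.4 and 14.3 CPM in RPMI-8226. Both RPMI-8226-R values lay far below both parental ones, 2.32-fold lower in the fit, a log2 fold change of -1.21 ± 0.13 (adjusted p = 6.6e-08, edgeR). E2F1, the transcription factor, had 48.0 and 46.9 CPM in RPMI-8226-R, against 76.1 and 78.1 CPM in RPMI-8226. Its groups were apart, with a log2 fold change of -0.70 ± 0.07 (adjusted p = 4.8e-08, edgeR) and -0.28 on the log2(TPM + 1) scale.

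Of the nucleotide supply genes and SLBP, 1 rose, 2 fell and 2 did not pass, with a median log2 fold change of -0.12, against 0.25 on the log2(TPM + 1) scale. TK1, which salvages thymidine, had 275 and 259 CPM in RPMI-8226-R, against 467 and 479 CPM in RPMI-8226, a log2 fold change of -0.83 ± 0.06 (adjusted p = 3.6e-10, edgeR). RRM2, the S phase subunit of ribonucleotide reductase, had 290.3 and 277 CPM in RPMI-8226-R, against 442 and 442 CPM in RPMI-8226, a log2 fold change of -0.64 ± 0.06 (adjusted p = 6.6e-09, edgeR). Both genes had separate groups and passed on the TPM scale as well. TYMS, which makes thymidylate from deoxyuridylate, moved the other way. It had 195 and 177 CPM in RPMI-8226-R, against 146 and 142 CPM in RPMI-8226, a rise of 0.37 ± 0.07 (adjusted p = 4.5e-05, edgeR). TYMS overlaps ENOSF1 on the other strand, which was less abundant and also rose, by 0.62. SLBP, which binds the end of histone mRNA, had 117 and 111 CPM in RPMI-8226-R, against 122 and 125 CPM in RPMI-8226, and did not pass (adjusted p = 0.12, edgeR). RRM1, the other reductase subunit, did not pass either at -0.08, and both took the opposite sign on the log2(TPM + 1) scale.

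**Figure D3:**
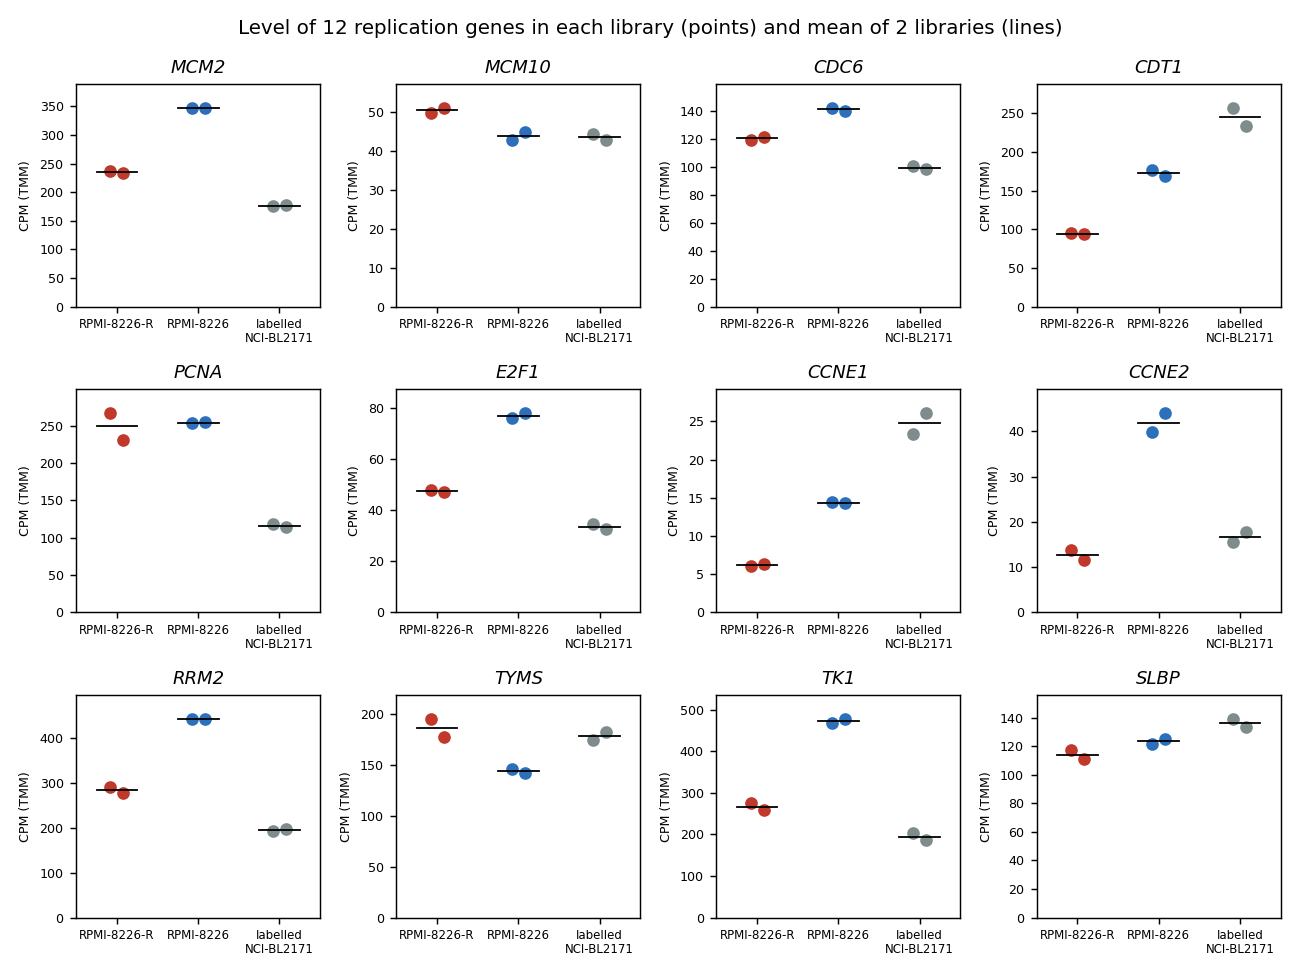
CPM on TMM scaling of 12 replication genes in each library (points) with the mean of 2 libraries (lines), from left RPMI-8226-R, RPMI-8226 and the libraries labelled NCI-BL2171, on axes that start at 0. RPMI-8226 is the highest line for MCM2, CDC6, E2F1, CCNE2, RRM2 and TK1, and RPMI-8226-R and RPMI-8226 overlap for PCNA.

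Outside the 46 genes, 6 lists of related genes were read in the same fit of RPMI-8226-R against RPMI-8226. Of all tested genes in this comparison, 28.5% rose and 37.2% fell. Of 16 other licensing and firing genes, 12, or 75%, rose, none fell and 4 did not pass, with a median of 0.48. Among them were MCM9 and MCM8, which form a separate helicase active in recombination, at 1.82 and 1.14. Of 21 other replisome genes 12, or 57.1%, rose and 2, or 9.52%, fell. The histone chaperone ASF1A rose by 2.09 and the helicase RTEL1 by 0.95, while the polymerase delta subunit POLD4 had -1.24 and the clamp loader subunit CHTF18 -0.46. ASF1A lies within the span of MCM9, and POLD4 within that of RAD9A, each on the other strand. Each pair moved the same way, and the use of strand in counting is not given, so these counts are uncertain. Overlaps of the other genes in these lists were not looked up. Of 20 other nucleotide supply genes 14, or 70%, rose and 3, or 15%, fell. UMPS of pyrimidine synthesis rose by 1.54 and GART of purine synthesis by 1.37, while the salvage kinase DCK had -1.09 and IMPDH2 of guanine nucleotide synthesis -0.40.

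Of 29 regulators of the G1 to S step, 11, or 37.9%, rose and 15, or 51.7%, fell, against 28.5% and 37.2% of all tested genes. E2F8 rose to 36.4 and 37.1 CPM in RPMI-8226-R, against 12.4 and 11.9 CPM in RPMI-8226, and E2F4 to 130.1 and 124 CPM, against 45.2 and 50.1 CPM; both encode E2F family members counted mainly as repressors. The CDK inhibitor genes CDKN1C and CDKN2D showed the largest falls of the list. CDKN1C had 31.2 and 40.05 CPM in RPMI-8226-R, against 446 and 452 CPM in RPMI-8226, 12.6-fold lower. CDKN2D had 7.53 and 8.49 CPM in RPMI-8226-R, against 87.6 and 91.0 CPM in RPMI-8226, 11.1-fold lower. Of 10 S phase checkpoint genes 6, or 60%, rose and 3, or 30%, fell. The kinase ATR and its partner ATRIP rose by 1.41 and 1.35, while the kinase CHEK1, which ATR activates, fell by 1.08 and RAD9A by 0.81. RAD9A overlaps POLD4 on the other strand, which also fell, so its count is uncertain. Of 19 G2 and mitosis genes tested, 5, or 26.3%, rose and 10, or 52.6%, fell, so that their share of rises was near that of all tested genes. The factor FOXM1 rose by 1.17 and CENPE by 0.78, while KIF20A had -1.71 and CDK1 -1.61. All named genes of these lists passed in edgeR, with adjusted p from 2.3e-17 for CDKN2D to 0.00059 for CHTF18. On the log2(TPM + 1) scale CHTF18 and IMPDH2 did not pass (limma adjusted p = 0.90 and 0.64). The G1 to S list's median was -0.18 on counts and 0.0063 on the log2(TPM + 1) scale, and the medians of the other 5 of these lists kept their sign.

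Between RPMI-8226 and the libraries labelled NCI-BL2171, 16 replication genes were higher in RPMI-8226, 21 were lower and 9 did not pass, where 76.7% of all tested genes were called, 41.1% higher and 35.6% lower. The members were thus called about as often as other genes, 80.4%, with a median log2 fold change of -0.13 against 0.09 over all tested genes; on the log2(TPM + 1) scale 12 were higher and 26 lower, against 32.2% and 38.5% of all genes. A change of at least 1.5-fold was seen in 10 higher and 10 lower, against 34.5% and 27.9%. CDC45 stood apart from all other members. It had 11.9 and 13.7 CPM in RPMI-8226, against 114 and 114 CPM in the libraries labelled NCI-BL2171, 8.94-fold lower in RPMI-8226, with a log2 fold change of -3.16 ± 0.10 (adjusted p = 1.7e-17, edgeR). CDC45 (ENSG00000093009) lies at GRCh38 chr22:19479459-19520612 on the plus strand. POLE had 25.2 and 24.1 CPM in RPMI-8226, against 84.3 and 90.7 CPM in the libraries labelled NCI-BL2171, a log2 fold change of -1.83 ± 0.09 (adjusted p = 1.7e-13, edgeR). RPA2 had 39.0 and 38.9 CPM in RPMI-8226, against 124 and 122 CPM in the libraries labelled NCI-BL2171, a log2 fold change of -1.66 ± 0.07 (adjusted p = 1.3e-14, edgeR). Both RPMI-8226 libraries lay below both libraries labelled NCI-BL2171 for these 3 genes.

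The largest rises in this comparison were GINS3, CCNE2 and TK1. GINS3 had 27.7 and 28.2 CPM in RPMI-8226, against 9.36 and 8.34 CPM in the libraries labelled NCI-BL2171, a log2 fold change of 1.66 ± 0.11 (adjusted p = 1.2e-11, edgeR). CCNE2 had 39.9 and 44.1 CPM in RPMI-8226, against 15.6 and 17.7 CPM in the libraries labelled NCI-BL2171, a log2 fold change of 1.33 ± 0.11 (adjusted p = 4.8e-10, edgeR). TK1 had 467 and 479 CPM in RPMI-8226, against 204 and 186 CPM in the libraries labelled NCI-BL2171, a log2 fold change of 1.28 ± 0.07 (adjusted p = 1.2e-13, edgeR). The groups did not overlap for any of the 3. GINS2 and GINS3 encode subunits of 1 complex, yet GINS2 was 2.25-fold lower and GINS3 3.15-fold higher in RPMI-8226.

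Between RPMI-8226-R and the libraries labelled NCI-BL2171, 21 genes were higher in RPMI-8226-R, 20 were lower and 5 did not pass, where 77.4% of all tested genes were called, 39.2% higher and 38.2% lower. Of the members 89.1% were called, 45.7% higher and 43.5% lower, somewhat larger shares than those of all tested genes. On the log2(TPM + 1) scale 23 were higher and 14 lower, against 37.9% and 32.2% of all genes. A change of at least 1.5-fold was seen in 12 of the 46 higher and 9 lower, smaller shares than the 32.6% and 31.1% of all genes. This comparison shares its libraries with the other 2. GINS3 rose most, with 38.4 and 42.5 CPM in RPMI-8226-R, against 9.36 and 8.34 CPM in the libraries labelled NCI-BL2171, a log2 fold change of 2.19 ± 0.11 (adjusted p = 6.5e-14, edgeR). RFC3 with 147 and 145 CPM stood 2.91-fold above its 51.3 and 48.8 CPM in the libraries labelled NCI-BL2171, and FEN1 with 334 and 300.2 CPM 2.60-fold above its 124 and 119.9 CPM there. CDC45 with 15.9 and 13.4 CPM in RPMI-8226-R was 7.79-fold lower, against 114 and 114 CPM in the libraries labelled NCI-BL2171. RPA2 with 33.7 and 31.0 CPM in RPMI-8226-R was 3.79-fold lower, against 124 and 122 CPM in the libraries labelled NCI-BL2171. CCNE1 with 6.05 and 6.31 CPM in RPMI-8226-R was 4.0-fold lower, against 23.4 and 26.1 CPM in the libraries labelled NCI-BL2171. The CDC45 and RPA2 levels of RPMI-8226-R were thus near those of its parent, while that of RFC3 was not.

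The order of the 3 lines differed from gene to gene. The mean CPM was highest in RPMI-8226-R for 17 members, in RPMI-8226 for 9 and in the libraries labelled NCI-BL2171 for 20. Past the threshold at each step, 7 members stood in the order RPMI-8226-R above RPMI-8226 above NCI-BL2171, namely MCM3, MCM5, MCM6, GINS1, GINS3, POLD2 and FEN1. In the reverse order stood 6, namely ORC1, CDT1, RFC2, PRIM1, RPA2 and CCNE1. MCM2, CDC6, E2F1, RRM2 and TK1 were highest in RPMI-8226, lower in RPMI-8226-R and lowest in the libraries labelled NCI-BL2171, all 3 steps passing in edgeR. RFC3, POLA1, POLA2, CHAF1A, MCM10 and PRIM2 were higher in RPMI-8226-R than in both others, which did not differ past the threshold; the steps of MCM10 and PRIM2 to the libraries labelled NCI-BL2171 were lost without NCI-BL2171 replicate 2 (adjusted p = 0.10 and 0.096, edgeR). The step of MCM6 between RPMI-8226 and NCI-BL2171 was lost without either RPMI-8226 library or without NCI-BL2171 replicate 1, with adjusted p from 0.10 to 0.28 in edgeR.

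**Figure D4:**
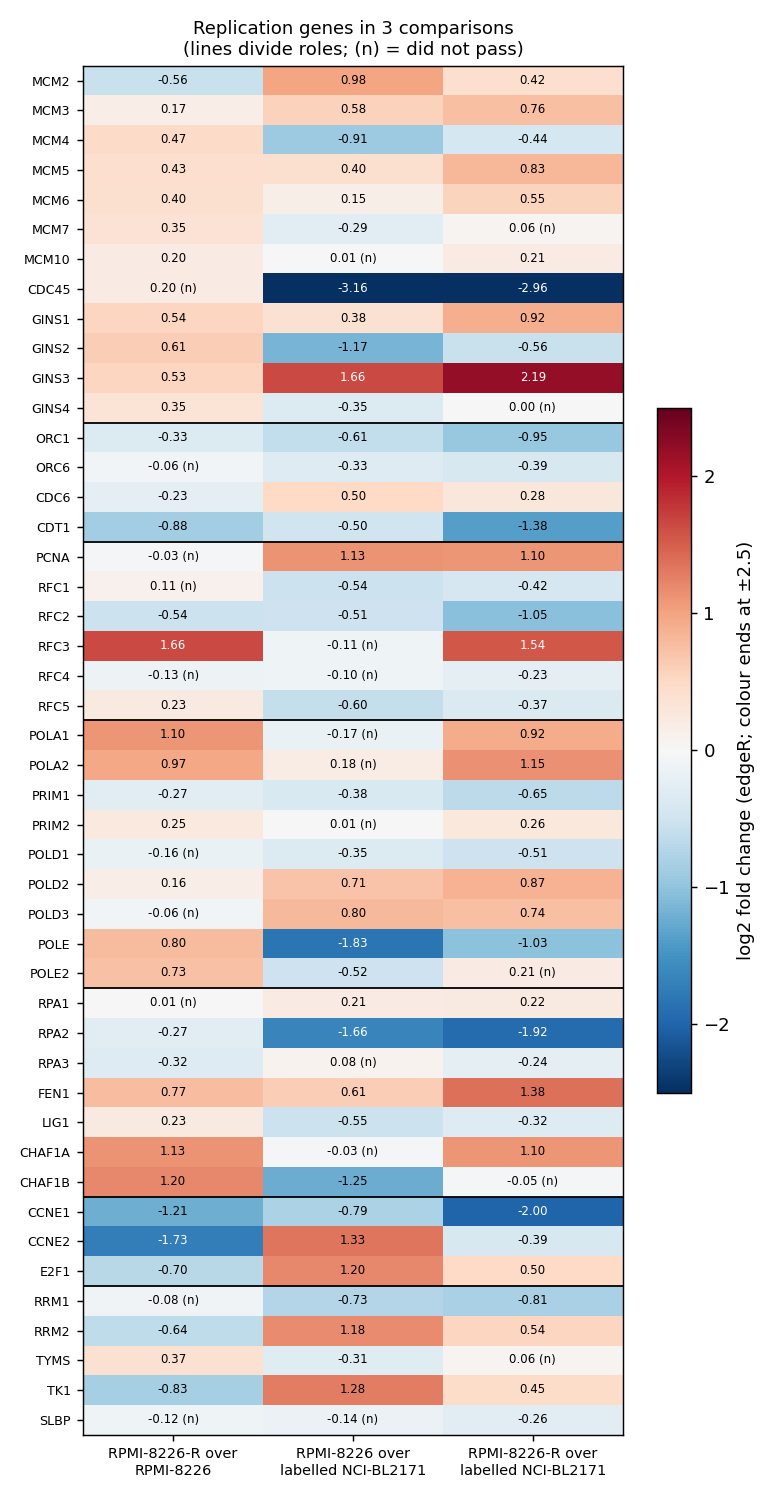
Log2 fold change of each replication gene in the 3 comparisons of lines, from edgeR on TMM-scaled counts, with the value in each cell and (n) on those that did not pass an adjusted p of 0.05; colour ends at 2.5 in size. CDC45 has the lowest values against the libraries labelled NCI-BL2171, -2.96 in RPMI-8226-R and -3.16 in its parent.

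The deposited TPM gave another centre than the scaled counts. For RPMI-8226-R over RPMI-8226, a gene's log2(TPM + 1) difference lay 0.36 above its log2 fold change of counts at the median of all tested genes, and the median log2(TPM + 1) difference of the members was 0.43. Less that shift, the values were 1.57 for RFC3, 1.13 for CHAF1A, -1.59 for CCNE2 and -1.10 for CCNE1, so that each kept its sign. The transcript length behind the TPM differed as well. Both RPMI-8226-R libraries had a longer length than both RPMI-8226 libraries in 19 members and a shorter one in 7, where 20.6% of all tested genes were longer and 13.7% shorter in this way. The ratio of mean lengths ran from 0.886 for MCM5 to 1.30 for MCM10. Under all 15 alternatives, 8 of the 23 rises kept their call, those of GINS2, RFC3, POLA1, POLA2, POLE, FEN1, CHAF1A and CHAF1B, and 6 of the 13 falls, those of CDT1, CCNE1, CCNE2, E2F1, RRM2 and TK1. With the 1.5-fold rule set aside the counts were 14 of 23 and 7 of 13. None of the 10 members that did not pass stayed so under all alternatives. On the log2(TPM + 1) scale 8 of them passed as higher by limma-trend, at 0.25 to 0.61, namely ORC6, PCNA, RFC1, RFC4, POLD3, RPA1, RRM1 and SLBP. CDC45 and POLD1 did not pass there and were called in other fits, CDC45 without RPMI-8226-R replicate 2 and POLD1 with the effective-length offset among others. Leaving out 1 library at a time took the call from 9 members in this comparison. MCM10 lost it without RPMI-8226-R replicate 2, RPMI-8226 replicate 1 or RPMI-8226 replicate 2 (adjusted p = 0.062, 0.18 and 0.07, edgeR). RFC5 and PRIM2 lost it without RPMI-8226-R replicate 1 (0.23 and 0.067) or RPMI-8226 replicate 1 (0.16 and 0.18), and PRIM1 without RPMI-8226-R replicate 2 or RPMI-8226 replicate 2 (0.22 and 0.12). POLD2, LIG1, MCM3, RPA2 and CDC6 lost it in at least 1 such fit, with adjusted p from 0.051 to 0.17. All of these had log2 fold changes below 0.3 in size.

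**Figure D5:**
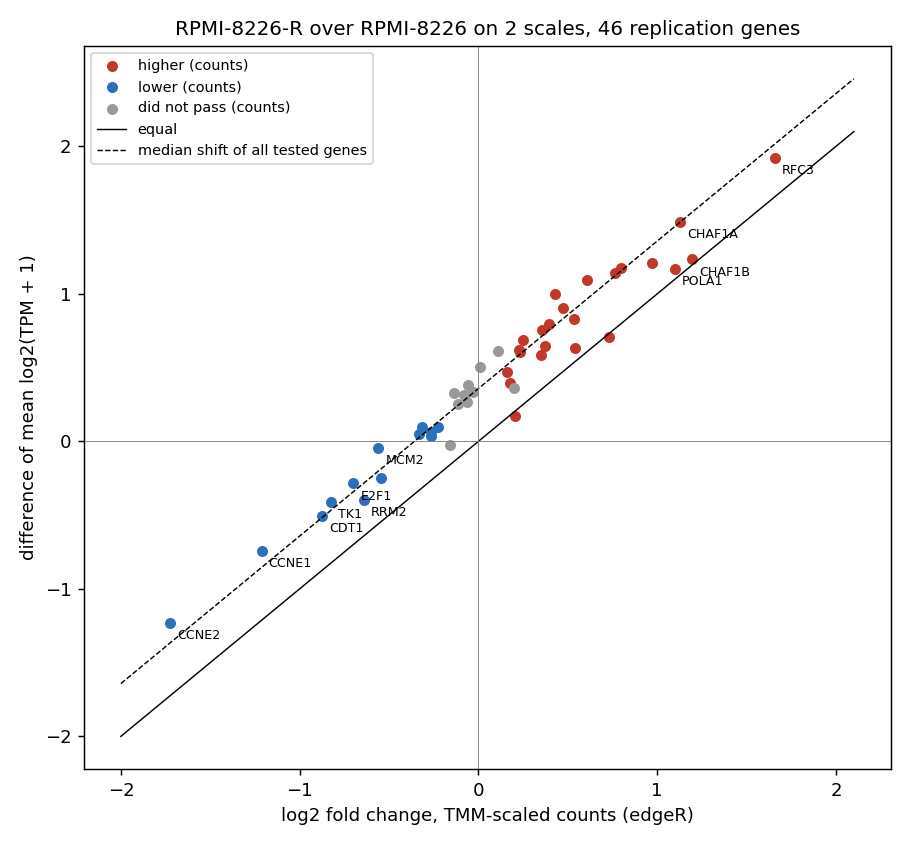
Change of each replication gene in RPMI-8226-R over RPMI-8226 on 2 scales, log2 fold change of TMM-scaled counts (horizontal) against the difference of log2(TPM + 1) (vertical), with a line where they are equal and a line shifted by 0.36, the median over all tested genes of a gene's difference between the scales. Most members lie above the line of equality, and RFC3 and CCNE2 are at the ends on both scales.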

How the data were processed

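Ribosomal RNA was removed from total RNA for 6 libraries, 2 per line, before sequencing, per the labels' protocols. For each library the authors deposited the length, effective length, TPM and estimated read count of every gene. These deposited estimated counts were rounded here, since they are not all whole. The deposited TPM values are the authors' own and share the tables with the counts, per the file headers. Both length columns are another deposited unit (bases) and differ between libraries. The submitters' processing notes name the build GRCh38.p13. Quantifier, annotation and use of strand: not given in the sources used here. In GENCODE 29, 20 members overlap a gene on the other strand, 12 of them a protein-coding one. Pseudoautosomal Y copies were added to their X copies.

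The main test was edgeR 4.0.16 (R 4.3.3): TMM scaling, filterByExpr with a minimum count of 10 and a minimum total of 15, then robust quasi-likelihood F tests in a fit of 6 libraries that left 3 residual degrees of freedom. P-values were two-sided and adjusted by Benjamini-Hochberg over 20081 genes, with a threshold of 0.05. The code was tested on simulated data. Alternatives were DESeq2 1.42.0, limma 3.58.1 (voom, or trend on log2(TPM + 1) and log2(TPM + 0.1)), upper-quartile factors, an effective-length offset, no filter or 50 reads in 2 libraries, only the lines compared, a replicate block, a 1.5-fold minimum, and each replicate left out, where the lone library is assumed to vary like the others. The main fit did not pair libraries across lines by replicate number, since no label says that they are paired. Within each line the libraries were not copies of each other. The chi-square per gene between them was 10.99 in RPMI-8226-R, 3.47 in RPMI-8226 and 5.48 in the libraries labelled NCI-BL2171. The RPMI-8226-R libraries thus differed most by this measure.

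Members and lists were chosen with earlier results of these data known. Of the preset red cell lineage markers, 1 is not reported here. By rule, library values are given for 12 preset members, for up to 2 rises and 2 falls of each role group in RPMI-8226-R over RPMI-8226, and for the 3 largest changes each way in the other comparisons. Each further list gives up to 2 genes each way, with 1 TPM or more on average in the higher line. Values of other members were chosen after they were seen. Promoter windows are RefSeq's (GRCh38.p14).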

Additional observations from a re-analysis of the deposited data

How the results depend on the processing

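Directions and calls of most members held under DESeq2, limma-voom, other filters and left-out libraries. In RPMI-8226-R over RPMI-8226, leaving out each library gave 17 to 22 rises and 11 to 14 falls. The ranges were 14 to 16 rises and 21 to 22 falls for RPMI-8226 over NCI-BL2171, and 18 to 21 and 18 to 20 for RPMI-8226-R over NCI-BL2171. Requiring a 1.5-fold change left 9 rises and 6 falls, 10 and 10, and 12 and 9 in the same order of comparisons. With log2(TPM + 1) or log2(TPM + 0.1), 7 members fell in RPMI-8226-R over RPMI-8226. These scales gave the opposite sign, with values that were the same as printed unless given as a pair, for ORC1 (0.052 and 0.054), ORC6 (0.27 and 0.28), CDC6 (0.10), PCNA (0.34), RFC4 (0.33), PRIM1 (0.036), POLD3 (0.38 and 0.40), RPA2 (0.063 and 0.065), RPA3 (0.10), RRM1 (0.32) and SLBP (0.25). Likewise reversed were MCM6 (-0.025 and -0.026) and RPA1 (-0.10) in RPMI-8226 over NCI-BL2171 and RFC1 (0.017) in RPMI-8226-R over NCI-BL2171. The median over all tested genes of a gene's log2(TPM + 1) difference less its log2 fold change of counts was 0.36, -0.22 and 0.14 in the 3 comparisons. Less that 0.36, the first 11 genes took the sign of the counts again except POLD3, at 0.024. MCM10 had -0.15 with the effective-length offset; the cause was not tested. With the replicate number as a block, 23 members rose and 14 fell in RPMI-8226-R over RPMI-8226, POLD1 being the added call. The counts were 16 and 22 and 21 and 20 in the other comparisons. The correlation of deviations of same-numbered libraries was 0.01, 0.03 and -0.00 over all tested genes, so it gave no sign of pairing. It takes in the noise of low counts and cannot exclude a shared batch. Numbers are those of the sample titles; the deposited files number the NCI-BL2171 libraries the other way round, and a block with that numbering was not run. With 2 libraries a line, small changes of 0.1 to 0.2 on the log2 scale lie near what the test can call.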
